A study of Mus musculus with 15 samples.

Results

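The genes described here are 10 chaperones and heat shock factors of the mouse testis, Hspa2, Hspa1l, Hspa4l, Hsp90aa1, Hsp90ab1, Hspa8, Hsph1, Hsf1, Hsf2 and Hsf5, taken by symbol from the 32285 genes of the deposited single-cell count tables, in which all 10 were found. The study asked how spermatogenesis responds to and recovers from JQ1, a small molecule that competes for the bromodomains of BRDT, the testis member of the BET family of chromatin readers. Single cells of dissociated testes were measured by droplet RNA sequencing, in which transcripts are counted as unique molecular identifiers (UMIs), in 15 libraries of 1 mouse each. All mice were DBA/2J males, and each of the 5 groups had 3 libraries.

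Mice of the treatment group (T) were injected daily with JQ1 at 50 mg/kg for 3 wk and taken at once, at 10 wk of age. Their vehicle controls (VC-T) had the same injections of DMSO in (2-hydroxypropyl)-β-cyclodextrin and were also 10 wk old. Mice of the recovery group (R) had the same JQ1 course and were taken 6 wk after its end, at 16 wk of age, beside vehicle controls of that age (VC-R). A single untreated group (UC), 15 wk old, served as control for both times, so that age cannot be told apart from treatment where UC is compared with T. JQ1 binds the other BET proteins too and reached the whole animal, so the groups are not a model of BRDT loss in germ cells alone.

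Heat shock proteins of the HSP70 and HSP90 families bind unfolded or client proteins and use ATP to help them fold, and members of the HSP110 family load HSP70 with fresh nucleotide. The testis keeps forms of its own: HSPA2 is made from meiosis onwards and is needed for male germ cells to complete it, HSPA1L is made in haploid cells, and HSPA4L is an HSP110 relative rich in male germ cells. Heat shock factors are transcription factors that bind heat shock elements, arrays of inverted nGAAn blocks, in the promoters of chaperone genes. HSF1 drives the stress response, HSF2 acts in development and spermatogenesis, and HSF5 is a germ-cell member of the family.

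Promoter sequences from RefSeq (build GRCm38.p6) were matched for 6 of the 10 genes, and 3 are shown: those of Hsph1 and Hspa1l, the members called in spermatid-like cells after JQ1, and that of Hspa2, the meiotic HSP70. The Hspa1l and Hspa2 sequences both hold a CCAAT box and a cyclic-AMP core, and the Hsph1 sequence holds a heat shock element and 2 CCAAT boxes. Each runs from 250 bases before to 30 bases after the annotated start, and capitals mark the motifs found on either strand: a heat shock element of 3 blocks (GAANNTTCNNGAA or TTCNNGAANNTTC), a CCAAT box (CCAAT or ATTGG) and the core of a cyclic-AMP response element (TGACG or CGTCA).
Hsph1 (chr5:149636286-149636565, minus strand): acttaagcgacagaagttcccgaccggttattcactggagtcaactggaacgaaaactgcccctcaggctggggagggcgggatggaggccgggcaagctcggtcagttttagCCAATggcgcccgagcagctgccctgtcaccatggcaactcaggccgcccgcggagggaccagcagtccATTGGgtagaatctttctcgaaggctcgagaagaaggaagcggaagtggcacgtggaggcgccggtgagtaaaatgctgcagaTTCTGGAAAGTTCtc
Hspa1l (chr17:34972453-34972732, plus strand): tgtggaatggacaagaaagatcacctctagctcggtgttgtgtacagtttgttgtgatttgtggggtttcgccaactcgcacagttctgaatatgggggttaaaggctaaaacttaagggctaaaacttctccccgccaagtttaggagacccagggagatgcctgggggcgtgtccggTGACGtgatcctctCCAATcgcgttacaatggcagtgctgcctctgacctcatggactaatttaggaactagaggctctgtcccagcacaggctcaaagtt
Hspa2 (chr12:76404120-76404399, plus strand): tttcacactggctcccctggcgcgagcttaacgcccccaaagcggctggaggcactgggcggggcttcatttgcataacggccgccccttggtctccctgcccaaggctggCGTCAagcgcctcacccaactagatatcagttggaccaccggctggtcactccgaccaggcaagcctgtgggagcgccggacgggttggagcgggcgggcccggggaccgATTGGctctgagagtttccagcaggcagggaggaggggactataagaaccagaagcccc
In windows of 300 bases, reaching 50 bases past the start, the heat shock element of 3 blocks stood in 1 of the 6 genes, Hsph1, against 0.603% of all 32851 promoters of that length. It lay just downstream of the start in Hsph1, whose RefSeq entry has a pair of nearby starts that both hold it. The CCAAT box was held by 5 of the 6 genes (all but Hspa4l), against 37.4% of all promoters, and the cyclic-AMP core by Hspa2, Hspa1l and Hspa4l, against 20.8%. A match is a run of letters and not a measured site.

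By the GENCODE vM21 annotation of GRCm38, the build of the deposited counts, Hspa2 lies at chr12:76404176-76406938, Hspa1l at chr17:34972703-34979285, Hspa4l at chr3:40744495-40796103 and Hsph1 at chr5:149614287-149636376. Hsp90aa1 spans chr12:110690605-110702728, Hsp90ab1 chr17:45567775-45573271 and Hspa8 chr9:40800984-40810087. The factors lie at chr15:76477422-76501913 (Hsf1), chr10:57486385-57513135 (Hsf2) and chr11:87617164-87659542 (Hsf5). An antisense gene, Gm10501, overlaps Hspa1l on the other strand. The counts give 1 value per gene, so isoforms were not separated, and whether reads in introns were counted is not given in the sources used here.

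Total UMIs per library ran from 9673587 to 98724982, with the R libraries deepest, and 72354 cells passed the filters. Cells were clustered without the 10 genes, and clusters were named from fixed markers as spermatogonia-like, spermatocyte-like, spermatid-like or spermatozoa-like (the study's name for late haploid cells), with finer stages inside the spermatocytes and spermatids. Library VC-T 1 stood apart: it held 0 spermatozoa-like cells of 5503, which allows a share of up to 0.0545%, and its late round spermatids made up 4.08% of spermatid-like cells, within the 2.66% to 6.91% of T and below the 18.9% and 38.5% of the other vehicle libraries. The study left it out of differential expression, and it is left out below unless named. T libraries held 1, 1 and 3 spermatozoa-like cells, too few for a test. Clusters whose cells had a median under 2000 UMIs made up 73.2% of the R spermatid-like cells against 5.53% to 15.7% in the other groups, and a spermatocyte-like cluster that fitted no finer stage held 35.6% of those cells in UC 1 and 13.2% in T 1, against 0.295% to 3.80% in the other UC and T libraries. Pairs of libraries shared at most 26 cell barcodes, and at most 0.548% of those of the smaller library.

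Levels are CPM, the UMIs of a gene per 1000000 UMIs of the cells summed, given over the 8 control libraries (UC, VC-R, VC-T 2 and VC-T 3) as mean ± SD, n = 8. They describe each gene's own profile over 7 germ stages and carry no test, since the stages were themselves found by expression. A 3′ count is not scaled by length, so genes are not ranked against each other. Droplets also take up free RNA, and Sertoli-like cells, somatic cells that should lack germ-cell transcripts, give 1 measure of it: in the control libraries they held 331 ± 154 CPM of Hspa2, 59.0 ± 34.6 CPM of Hspa1l and 29.0 ± 25.7 CPM of Hsf5. The other somatic classes, each with few cells, gave other values, with a median Hspa2 level of 148 CPM in Leydig-like (n = 5), 411 CPM in myoid-like (n = 4) and 62.6 CPM in macrophage-like cells (n = 3), and single libraries from 49.6 to 899 CPM. Their medians were 24.3, 87.4 and 49.9 CPM for Hspa1l and 24.6, 48.0 and 55.9 CPM for Hsf5. A germ-cell level within these ranges was not told apart from free RNA, whose part was not tested. Depth differed too: median UMIs per cell were 1578, 1744 and 2375 in UC Sertoli-like and 8657, 10455.5 and 10119 in UC pachytene cells. A given number of free UMIs is a larger CPM in a cell with fewer UMIs. The Sertoli level therefore need not be the level of free RNA in germ cells. UC Sertoli-like cells also held 2797 to 4750 CPM summed over 5 spermatozoa markers, whose source was not tested. For the other members, which somatic cells may also express, no such level could be set.

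Hspa2, the meiotic HSP70, was highest in meiosis. Its level was 1296 ± 50.2 CPM in pachytene and 1202 ± 30.3 CPM in diplotene and dividing spermatocytes, whose ranges overlapped, after 815 ± 178 CPM in leptotene and zygotene. It stood at 805 ± 64.0 CPM in early round spermatids, 271 ± 36.6 CPM in late round spermatids and 60.1 ± 16.4 CPM in spermatozoa-like cells. The span over the 7 stages was 21.6-fold in CPM. Each of the steps from early round to late round spermatids and on to spermatozoa-like cells separated the libraries completely. The means in late round and spermatozoa-like cells, and the 127 ± 53.0 CPM in spermatogonia-like cells, lay below the Sertoli level, and the last 2 also below the Leydig-like median. The part of free RNA in them was not tested.

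Hspa1l, the haploid HSP70, had the opposite course. It was high only at the end, at 117 ± 11.1 CPM in late round spermatids and 269 ± 21.7 CPM in spermatozoa-like cells, where every library lay above every library of the late round stage. In pachytene and in diplotene and dividing cells it stood at 11.5 CPM each, with SDs of 3.26 and 5.48, and in early round spermatids at 30.3 ± 3.97 CPM. All of these earlier levels lay below the Sertoli level, and the leptotene and zygotene values, 0 to 117 CPM, rested on 0 to 33 UMIs per library.

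The HSP110 relatives both reached high levels in haploid cells. Hspa4l went from 194 ± 69.8 CPM in spermatogonia-like cells to 579 ± 38.5 CPM in pachytene, 600 ± 31.1 CPM in early round spermatids, 751 ± 42.5 CPM in late round spermatids and 762 ± 63.8 CPM in spermatozoa-like cells. The last 2 of these overlapped, and the span over the 7 stages was 3.93-fold in CPM. Such spans depend on the scaling: with TMM, which corrects for a few abundant genes taking up much of a sum, Hspa4l in spermatozoa-like cells stood at 2561 in place of 762. Hsph1, the exchange factor HSP105, had a sharper peak: 108 ± 12.4 CPM in late round spermatids, against 12.1 ± 2.38 CPM in the early round spermatids just before and 10.7 ± 3.92 CPM in diplotene and dividing cells. Its 71.4 ± 9.15 CPM in spermatozoa-like cells lay below the late round range in every library. This order turned with the scaling, since TMM-scaled Hsph1, at 164 in late round spermatids, was highest in spermatozoa-like cells.

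The HSP90 genes parted early. Hsp90ab1, the constitutive HSP90, was highest in spermatogonia-like cells at 2350 ± 303 CPM. It dropped at almost every step to 27.7 ± 5.89 CPM in spermatozoa-like cells, an 84.9-fold span in CPM. Among neighbouring stages, only the diplotene and early round levels overlapped with each other. Hsp90aa1, the inducible form and one that spermatocytes need, was instead highest in prophase, at 4913 ± 296 CPM in pachytene and 4695 ± 644 CPM in leptotene and zygotene, which overlapped, against 1893 ± 202 CPM in spermatogonia-like cells. Hspa8, the constitutive HSP70, had a 341-fold span in CPM, from 688 ± 119 CPM in spermatogonia-like cells and 413 ± 66.7 CPM in leptotene and zygotene to 74.2 ± 11.3 CPM in pachytene and 2.02 ± 0.674 CPM in spermatozoa-like cells.

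The 3 factors had 3 different profiles. Hsf1 was highest before pachytene, at 35.7 ± 13.8 CPM in spermatogonia-like cells and 35.1 ± 7.43 CPM in leptotene and zygotene, and stood at 16.3 ± 0.818 CPM in pachytene and 1.31 ± 0.478 CPM in spermatozoa-like cells. Hsf2 had 2 highs with a trough between them: 42.7 ± 12.3 and 49.2 ± 30.1 CPM in the earliest stages, 5.69 ± 1.35 CPM in pachytene and 4.59 ± 2.47 CPM in diplotene, then 56.5 ± 6.47 CPM in early round spermatids. Hsf5 followed meiosis, with 194 ± 62.6 CPM in leptotene and zygotene, 220 ± 11.6 CPM in pachytene, 169 ± 32.6 CPM in diplotene and dividing cells and 76.1 ± 18.7 CPM in early round spermatids. Its levels in late round and spermatozoa-like cells, 10.7 and 9.72 CPM, and in spermatogonia-like cells, 24.4 CPM, lay below the Sertoli mean of 29.0 CPM. The early round mean also lay within the Sertoli range of 0 to 80.4 CPM, and so was not told apart from free RNA.

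**Figure D1:**
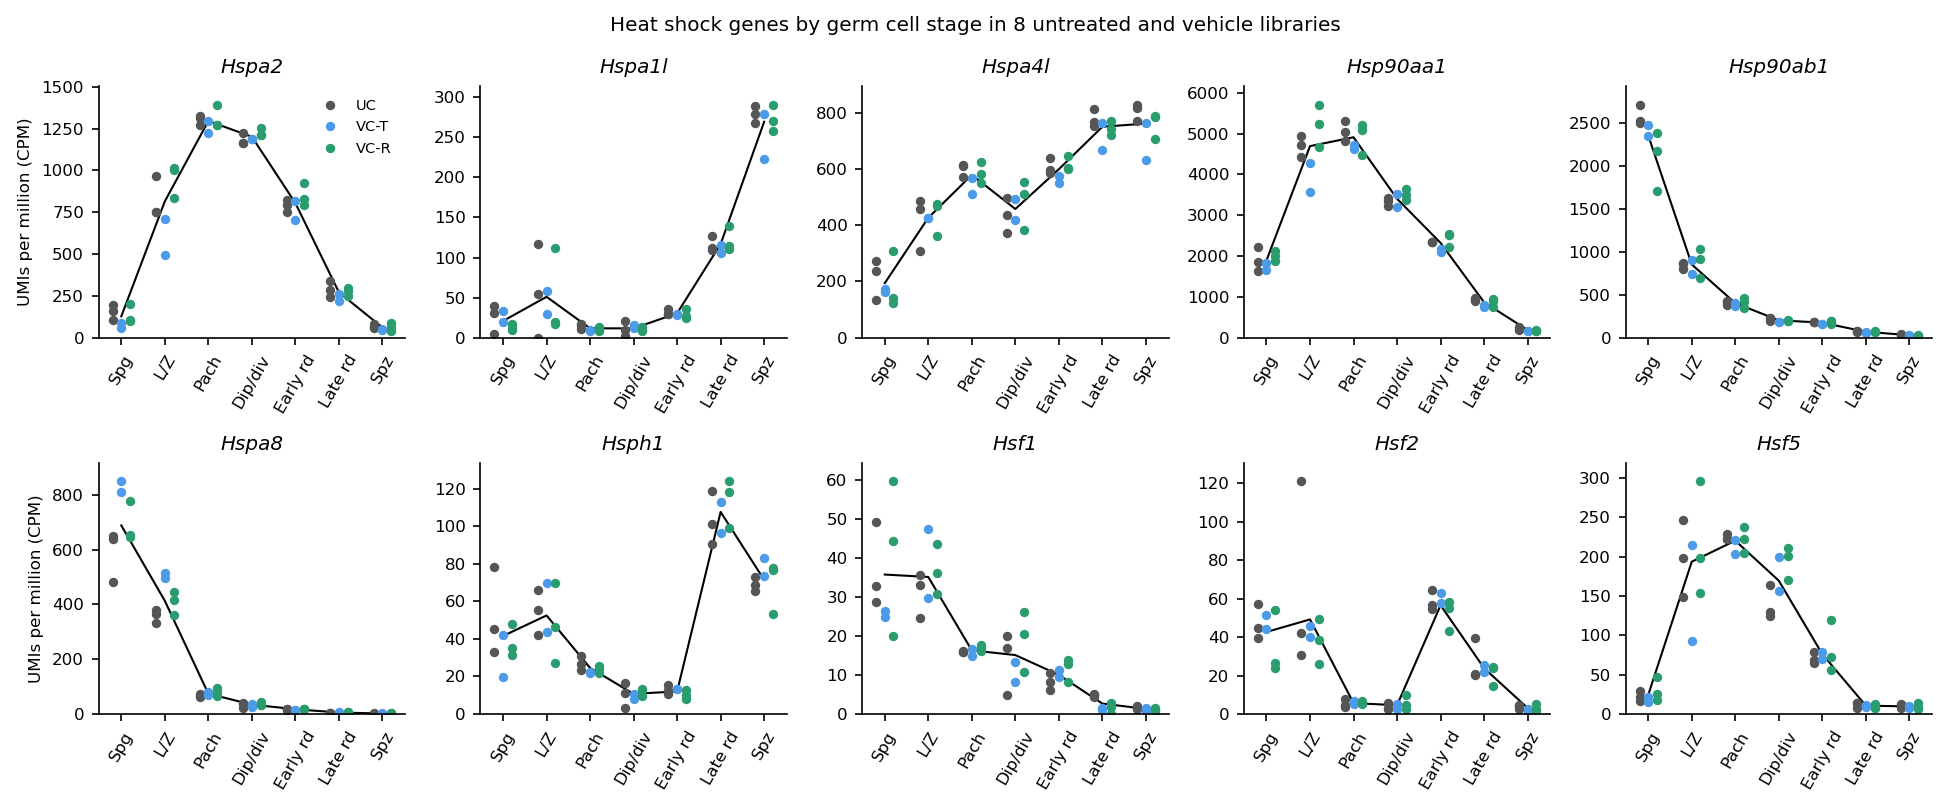
Level of each of the 10 genes (CPM, linear axis starting at 0, a panel per gene with its own axis) over 7 germ stages in the 8 control libraries, with a point per library coloured by group and a line through the means (Spg, spermatogonia-like; L/Z, leptotene and zygotene; Pach, pachytene; Dip/div, diplotene and dividing; rd, round spermatids; Spz, spermatozoa-like). Hspa2, Hsp90aa1 and Hsf5 are highest in pachytene, Hspa1l in spermatozoa-like cells at 269 ± 21.7 CPM, and Hsph1 in late round spermatids at 108 ± 12.4 CPM, though with TMM scaling Hsph1 is highest in spermatozoa-like cells.

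For each of 4 genes the 3 genes outside the members with the most similar course over the 7 mean levels were found among 7151 genes with a mean of at least 20 CPM, by Pearson's r of log2(CPM + 1). These were Wfdc15a, Lrrc29 and Lekr1 for Hspa2 (r = 0.9921 to 0.9930), Arl9, Hook1 and 1700031F10Rik for Hspa1l (r = 0.9862 to 0.9950), Rgs22, Ttll13 and Gm17202 for Hspa4l (r = 0.9469 to 0.9875), and Spdya, Lig3 and Pomt1 for Hsf5 (r = 0.9899 to 0.9932). Spdya, an activator of cyclin-dependent kinases needed in meiosis, went from 31.5 CPM in spermatogonia-like cells to 305 CPM in pachytene. Such values over 7 stages of the same libraries are a description only.

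The effect of JQ1 was read from UMIs summed per library and class, fitted across all genes by edgeR's quasi-likelihood test with Benjamini-Hochberg adjustment. To be called, a gene needed an adjusted p below 0.05 and a log2 fold change beyond 1 in either direction. These are the thresholds of the study. Fold changes are between summed counts scaled by TMM, so they need not equal the ratio of the CPM values given beside them. In these sums, fewer cells of a stage and less RNA per cell cannot be told apart.

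In spermatid-like cells 2 of the 10 genes were called, Hspa1l and Hsph1, both lower in T, where 16.5% of the 13179 genes tested were called (398 higher and 1779 lower). Hsph1 stood at 10.8, 11.8 and 6.77 CPM in T 1 to T 3 and at 48.7, 63.5 and 44.5 CPM in UC 1 to UC 3. Every T library lay below every UC library, and the log2 fold change was -2.57 ± 0.19 (SE, n = 3 and 3, edgeR adjusted p = 4.6e-08), or 5.96-fold lower. Hspa1l stood at 29.0, 22.9 and 24.0 CPM in T and at 68.8, 70.0 and 66.1 CPM in UC, again without overlap, with a log2 fold change of -1.65 ± 0.12 (edgeR adjusted p = 4.5e-08). The T values were in the range of the T Sertoli-like cells, which held 42.0 CPM (6 UMIs) in T 1 and 0 of 73763 UMIs in T 3, a count that allows up to 40.7 CPM.

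For the other 8 genes the differences in spermatid-like cells were smaller. Hspa2 stood at 955, 904 and 839 CPM in T and 595, 504 and 622 CPM in UC (log2 fold change 0.41 ± 0.07, edgeR adjusted p = 2.9e-04), past the p threshold but not the fold threshold. The same held for Hspa4l at -0.41, Hsp90ab1 at 0.26, Hsf1 at 0.56 and Hsf5 at 0.47. Hsp90aa1, Hspa8 and Hsf2 did not pass the p threshold, with values of 0.05, 0.37 and 0.24. The median over the 10 genes was 0.25, against 0.05 over all genes tested.

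The make-up of the spermatid-like cells differed between T and UC too. Late round spermatids, the stage at which Hsph1 in CPM peaks and Hspa1l first exceeds its earlier levels in controls, were 36.8%, 38.8% and 25.8% of the spermatid-like cells in UC 1 to UC 3 and 6.91%, 3.15% and 2.66% in T 1 to T 3. Summed over 5 spermatozoa markers, T spermatid-like cells held 2887 to 3081 CPM and UC 4931 to 5834 CPM, with none of the 5 at 0 in any of these libraries. When each library was cut to the same number of cells in each of 51 pseudotime bins, 348 cells per library were left. Hspa1l then had a log2 fold change of -0.17 ± 0.17 (edgeR adjusted p = 0.555) and Hsph1 of -0.96 ± 0.24 (edgeR adjusted p = 0.00621), so that neither was called. Each bin was cut to the library with the fewest cells in it, and T 2 and T 3 held 46 and 23 late round cells. How many cells of that stage were left was not counted, so this setting does not give the difference within it.

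Within the finer stages the 2 genes parted. In late round spermatids, where 15.7% of 7633 genes were called, Hsph1 was the only member called of 8 tested. It stood at 18.0, 26.2 and 13.2 CPM in T (14, 5 and 1 UMIs in 159, 46 and 23 cells) and at 90.3, 119 and 101 CPM in UC (114, 217 and 195 UMIs), a log2 fold change of -2.69 ± 0.27 (edgeR adjusted p = 1.0e-15). The T libraries lay far below the UC range, and the call held in all 13 alternatives run for it, with values between -2.83 and -2.51. The late round markers themselves were at 3769 to 3938 CPM in T and 4328 to 4539 CPM in UC, and the spermatozoa markers at 5904 to 6197 and 7802 to 8127 CPM. Their part in the Hsph1 difference was not tested.

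Hspa1l in the same late round cells stood at 100, 78.5 and 79.1 CPM in T (78, 15 and 6 UMIs) and at 109, 112 and 127 CPM in UC, with a log2 fold change of -0.56 ± 0.17 (edgeR adjusted p = 0.00697), not past the fold threshold. Hspa2 was at 699, 654 and 514 CPM in T against 338, 241 and 282 CPM in UC, with no overlap (0.96 ± 0.10, edgeR adjusted p = 3.8e-14), and was called without UC 1 (1.04) or without T 3 (1.01). The T values of 699 and 654 CPM lay above the 553 and 502 CPM of T Sertoli-like cells and that of 514 CPM between them, and the UC values within the 201 to 430 CPM of UC Sertoli-like cells. Summed over 9 spermatocyte markers, of which up to 5 were at 0 in T and up to 1 in UC, late round cells held 422 to 502 CPM in T and 190 to 238 CPM in UC, and their part in the Hspa2 difference was not tested. Hspa4l was at -0.52 and Hsf5 at 0.92, both past the p threshold alone. Hspa8 and Hsf1 had too few counts to be tested.

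In early round spermatids, 3.09% of 11589 genes were called and 0 of the 10 members, while 2 passed the adjusted p threshold of edgeR without the fold: Hspa1l at -0.62 ± 0.14 (21.9, 20.3 and 21.8 CPM in T against 36.2, 29.9 and 29.3 CPM in UC, edgeR adjusted p = 0.00234) and Hsp90aa1 at -0.19 ± 0.05. Hsph1 stood at 9.12, 10.8 and 5.64 CPM against 15.7, 10.6 and 12.6 CPM, which overlapped.

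**Figure D2:**
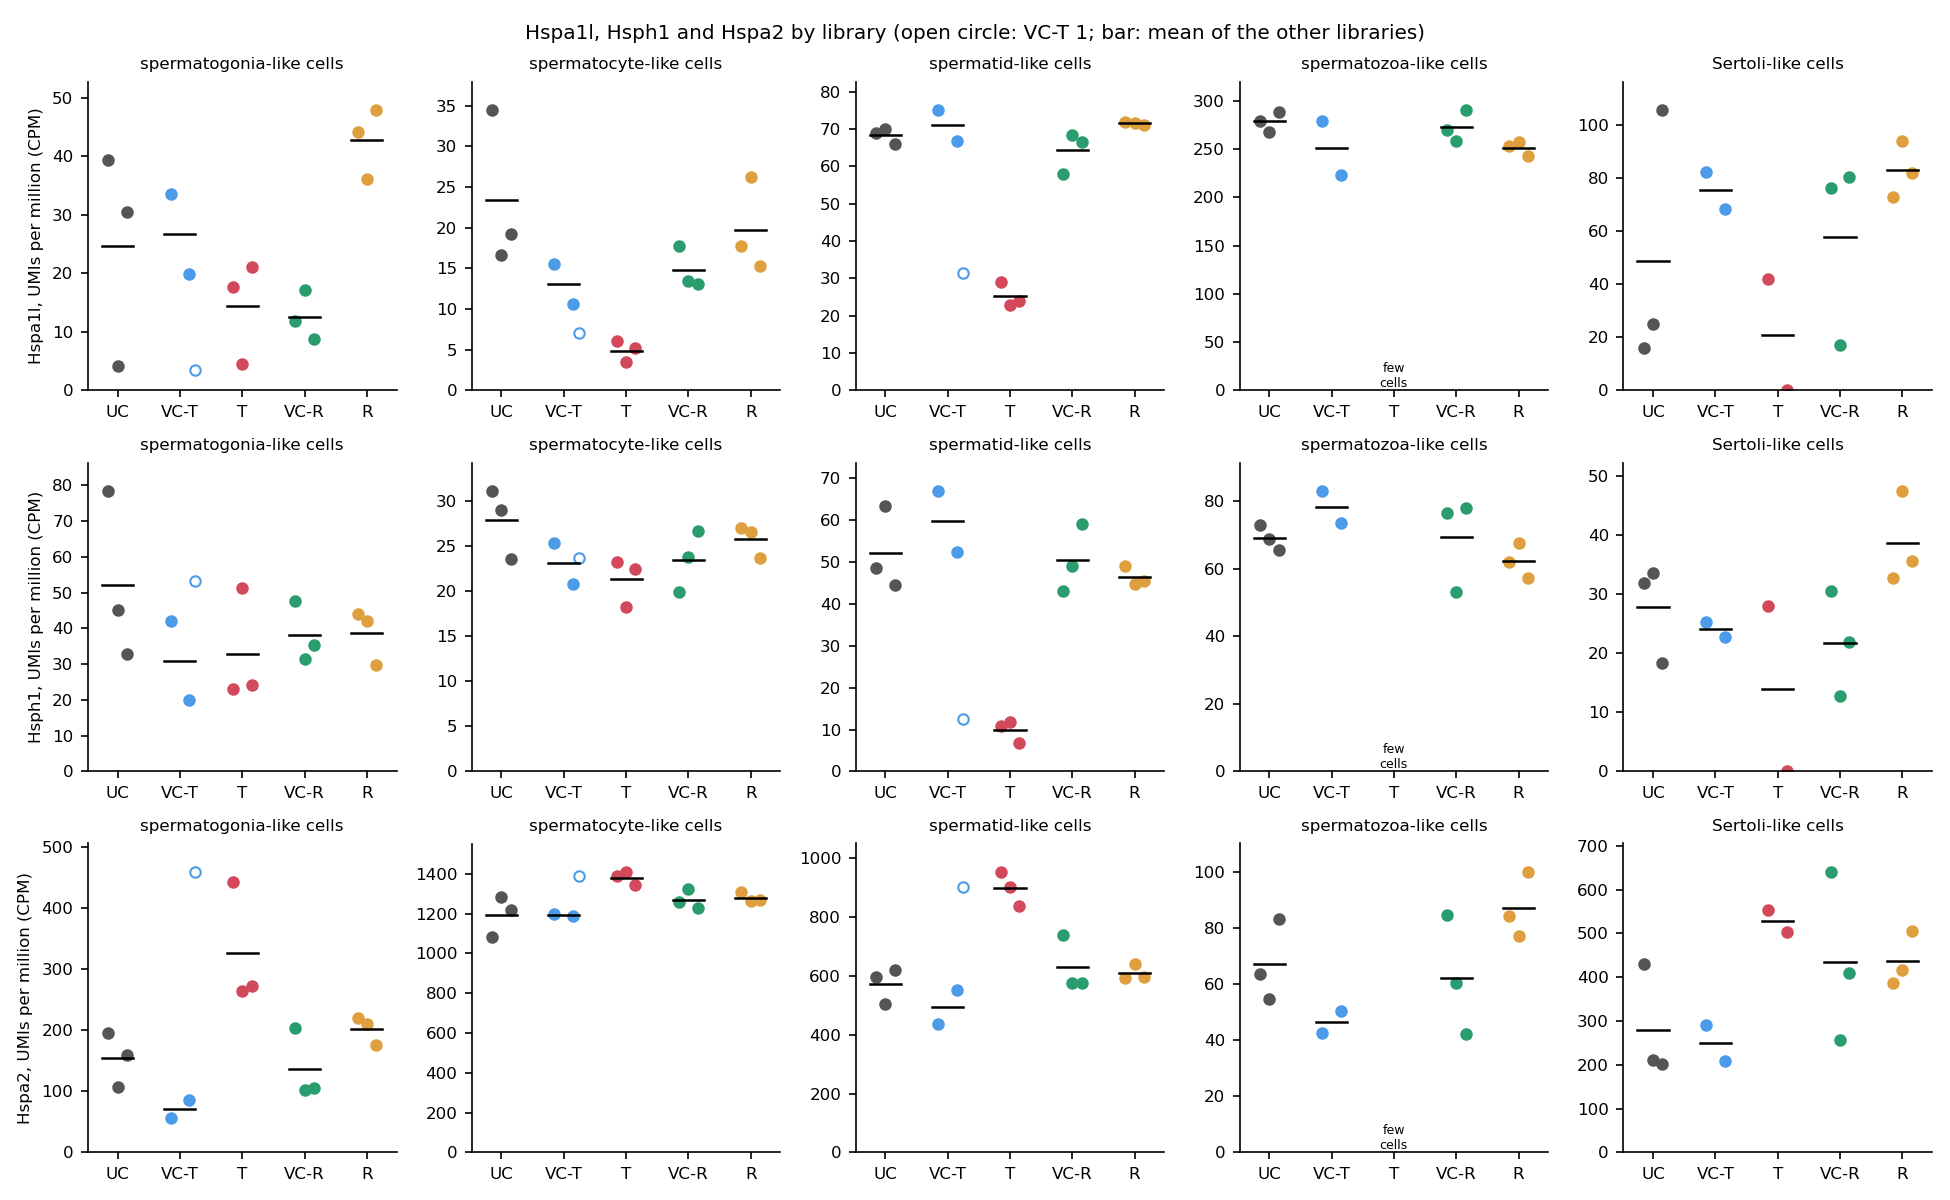
Hspa1l, Hsph1 and Hspa2 (rows) in the 4 germ classes and in Sertoli-like cells (columns), in CPM on linear axes starting at 0, with a point per library of the 5 groups, an open circle for VC-T 1 and a bar at the mean of the other libraries of a group. In spermatid-like cells Hsph1 lies between 6.77 and 11.8 CPM in T and between 44.5 and 63.5 CPM in UC, with VC-T 1 at 12.5 CPM, and T has too few spermatozoa-like cells to plot.

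The stage make-up of the library labelled VC-T 1 lay in the range of T and not of its own group. The study found it an outlier by principal components and by lower correlation with other controls, and ascribed this to technical variation. What set it apart was not tested here, and its values stand as those of 1 library. Its spermatid-like cells held 12.5 CPM of Hsph1 and 31.5 CPM of Hspa1l, beside 67.1 and 52.4 CPM of Hsph1 and 75.2 and 66.8 CPM of Hspa1l in VC-T 2 and VC-T 3. In its 120 late round cells Hsph1 was at 34.2 CPM (10 UMIs), above the T values of 13.2 to 26.2 CPM and below the 96.6 and 113 CPM of the other vehicle libraries. Its Hspa1l there was 95.8 CPM, against 106 and 116 CPM in those libraries.

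Against the vehicle group without VC-T 1, the same 2 genes were called in spermatid-like cells, with 19.0% of 14572 genes called. Hsph1 had a log2 fold change of -2.81 ± 0.19 (edgeR adjusted p = 2.9e-06) and Hspa1l of -1.74 ± 0.14 (edgeR adjusted p = 7.1e-06), each without overlap of the libraries. With VC-T 1 included the values were -2.40 ± 0.62 and -1.43 ± 0.37 (both with an edgeR adjusted p of 0.110), and 0 genes of all tested were called. At matched pseudotime Hsph1 was at -0.80 (adjusted p = 0.327) and Hspa1l at 0.18 (adjusted p = 0.844).

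In spermatocyte-like cells Hspa1l was the 1 member called against UC, where 0.844% of 12315 genes were called. It stood at 6.02, 3.44 and 5.24 CPM in T and at 34.5, 16.6 and 19.2 CPM in UC (log2 fold change -2.41 ± 0.38, edgeR adjusted p = 0.0451). Deviations of same-numbered T and UC libraries correlated here at 0.661, 0.404 and 0.113, though the labels do not say what a number shares. The spermatocyte-like cluster of no finer stage held 35.6% of these cells in UC 1 and 13.2% in T 1. With the replicate number as a block the value was -2.38 ± 0.22 (edgeR adjusted p = 0.00177) and 450 genes were called in place of 104. All of these levels lay within or below the UC Sertoli range of 15.9 to 106 CPM, and the part of free RNA in them was not tested. The 5 spermatozoa markers moved with them, at 124 to 270 CPM in T and 584 to 2641 CPM in UC, with none of the 5 at 0 in any of these libraries.

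For every 1000 UMIs of those markers, Hspa1l gave 24.9 UMIs in T and 17.6 in UC spermatocyte-like cells, beside 16.8 in T Sertoli-like (6 Hspa1l UMIs), 21.7 in UC Sertoli-like and 14.6 in UC spermatozoa-like cells. Against VC-T, Hspa1l was at -1.53 ± 0.27 (edgeR adjusted p = 0.00632) and again the only member called, with 5.71% of 12945 genes called, and with VC-T 1 included it was at -1.25 (adjusted p = 0.200). The call against UC was lost without UC 2, UC 3, T 1, T 2 or T 3, with values between -2.61 and -1.96 over all 6 omissions. In pachytene cells Hspa1l was lower too, at 5.27, 3.77 and 5.54 CPM against 16.4, 10.7 and 15.7 CPM (-1.71 ± 0.23, edgeR adjusted p = 2.3e-05).

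The meiotic members differed by at most 0.26 on the log2 scale in spermatocyte-like cells, and none was called. Hspa2 stood at 1387, 1411 and 1344 CPM in T and at 1081, 1284 and 1218 CPM in UC (0.09 ± 0.06, edgeR adjusted p = 0.449), so that the CPM values did not overlap while the scaled difference was small. Hsf5 was at 0.13 ± 0.06 and Hsp90aa1 at -0.26 ± 0.09. Hspa8 passed the p threshold against VC-T alone, at -0.58 ± 0.09. The make-up of this class differed too. Leptotene and zygotene cells were 0.491% to 0.941% of it in T, 6.27% to 21.2% in UC, and 35.1% and 20.9% in VC-T 2 and VC-T 3. In controls Hspa8 stood at 413 CPM in that stage and 74.2 CPM in pachytene. The part of this make-up in the members' differences over spermatocyte-like cells was not tested. The median over the 10 genes was -0.07 against UC, beside -0.02 over all genes.

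Among pachytene cells, where 5.27% of 11508 genes were called, Hsf2 was the other member called and the only one higher. It stood at 15.1, 10.9 and 11.1 CPM in T and at 7.62, 3.41 and 4.60 CPM in UC, with no overlap (1.15 ± 0.26, edgeR adjusted p = 0.00326), and was under the fold threshold without UC 2 (0.95) or without T 1 (0.98). Summed over 6 spermatid markers, none of them at 0, these cells held 94.2 to 164 CPM in T and 53.6 to 60.9 CPM in UC, and the part of this in the Hsf2 difference was not tested. Over all spermatocyte-like cells its libraries overlapped (15.8, 10.7 and 12.1 CPM against 14.5, 4.96 and 7.18 CPM, 0.36 ± 0.41), with the UC 1 value the high one. At matched pseudotime Hsf2 was called in spermatocyte-like cells, at 1.28 (edgeR adjusted p = 0.00953). Hsp90aa1 in pachytene was at 4150, 4190 and 4273 CPM in T and at 5035, 5307 and 4827 CPM in UC, without overlap but at a log2 fold change of -0.38 ± 0.06 (edgeR adjusted p = 1.3e-04).

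In leptotene and zygotene cells Hsp90aa1 was called among 6 members tested, with 10.6% of 1578 genes called. T held 22, 10 and 12 such cells and 1948, 1239 and 2965 CPM, against 4418, 4932 and 4722 CPM in UC (-1.11 ± 0.22, edgeR adjusted p = 4.7e-04). The call was lost without T 2 (-0.96) and when 10% of cells were removed as doublets (-0.90). In these cells 9 spermatogonia markers, up to 4 of them at 0 in T and up to 3 in UC, summed to 1433 to 2655 CPM in T and 565 to 1058 CPM in UC. The spermatocyte markers summed to 3776 to 4855 and 6297 to 7448 CPM, and the part of either in the Hsp90aa1 difference was not tested. In diplotene and dividing cells 0 of 6 members tested were called, with none past the adjusted p threshold in edgeR, and 0.918% of 5991 genes were called. Hsf2 was not tested there, and stood at 12.3, 9.79 and 10.2 CPM in T and at 2.38, 3.34 and 5.64 CPM in UC. These UC values rest on very few counts. Each control library held 1 to 5 Hsf2 UMIs in this stage, and 1.61% to 3.16% of the UC cells had any.

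In spermatogonia-like cells Hspa2 was called higher in T, where 2.91% of 7274 genes were called. It stood at 443, 264 and 272 CPM in T and at 196, 107 and 159 CPM in UC, without overlap (log2 fold change 1.19 ± 0.25, edgeR adjusted p = 0.0122). The T Sertoli-like cells held more, 553 CPM in T 1 and 502 CPM in T 3, beside 201 to 430 CPM in UC, and the Leydig-like cells of T 1 and T 3 held 535 and 590 CPM. The part of free RNA in these Hspa2 levels was not tested. Hsf5 stood at 62.5, 51.4 and 42.3 CPM in T and at 29.4, 16.4 and 21.1 CPM in UC (1.37 ± 0.38, edgeR adjusted p = 0.0535), beside 98.1 and 67.8 CPM in T Sertoli-like cells. Summed over 9 spermatocyte markers, spermatogonia-like cells held 1319 to 1529 CPM in T and 1074 to 1217 CPM in UC.

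Against VC-T, where 6.51% of 9406 genes were called, both Hspa2 (2.20 ± 0.29, edgeR adjusted p = 0.00155) and Hsf5 (1.51 ± 0.35, edgeR adjusted p = 0.0187) were called higher. With VC-T 1 included, whose spermatogonia-like cells held 460 CPM of Hspa2, the values were 0.83 and 1.01 (both with an adjusted p of 0.897). The Hsf5 call was also lost in DESeq2 (1.45, adjusted p = 0.0941), without VC-T 2 (1.19) and without T 1 (1.30). At matched pseudotime Hspa2 was still called against VC-T, at 1.80 (edgeR adjusted p = 0.0284), and was at 0.76 against UC (adjusted p = 0.532). The Hspa2 call against UC was also lost without UC 2 (0.94), UC 3 (1.31, adjusted p = 0.0571) or T 1 (0.81). Hsp90ab1, highest in these cells in controls, was at 1796, 1955 and 2167 CPM in T and 2709, 2501 and 2518 CPM in UC (-0.37 ± 0.10, edgeR adjusted p = 0.0362), short of the fold threshold.

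**Figure D3:**
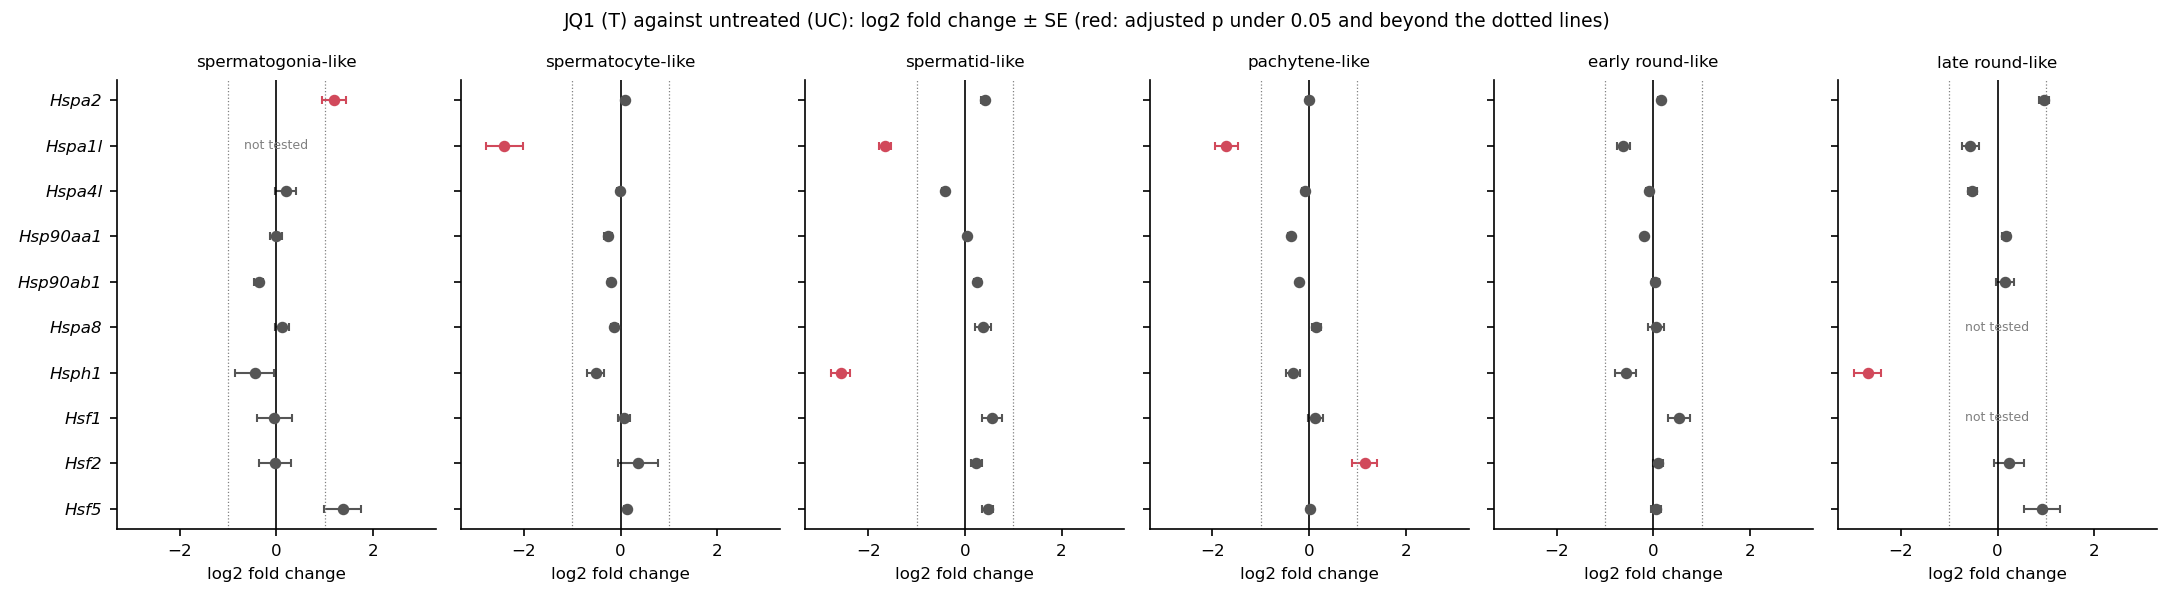
Log2 fold change ± SE of T against UC (n = 3 and 3) for each of the 10 genes (rows) in 3 germ classes and in pachytene, early round and late round cells (panels), red where called, with dotted lines at the fold threshold of 1 on either side. Hsph1 is furthest to the left in spermatid-like and late round cells, at -2.57 and -2.69, and most other points lie within the lines.

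Whether a gene's response differed between spermatocyte-like and spermatid-like cells was tested by an interaction term with the library as a block, which called 2.13% of 15086 genes. Those 321 genes became 1355 without UC 1, 92 without UC 2 and 0 without UC 3, T 1, T 2 or T 3. Hsph1 was the only member called: its T against UC difference was lower by 2.34 ± 0.29 on the log2 scale in spermatid-like than in spermatocyte-like cells (edgeR adjusted p = 0.0200). Its spermatocyte levels of 23.2, 18.2 and 22.4 CPM in T and 31.1, 29.0 and 23.5 CPM in UC differed by -0.52 ± 0.17 (adjusted p = 0.153). The call was lost in 5 of the 6 omissions of a library (all but UC 1), with values between -2.60 and -2.15. Hspa4l differed by -0.63 ± 0.10 (adjusted p = 0.0296), and for Hspa1l the difference was 0.45 ± 0.35 (95% interval -0.23 to 1.13, adjusted p = 0.572).

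**Figure D4:**
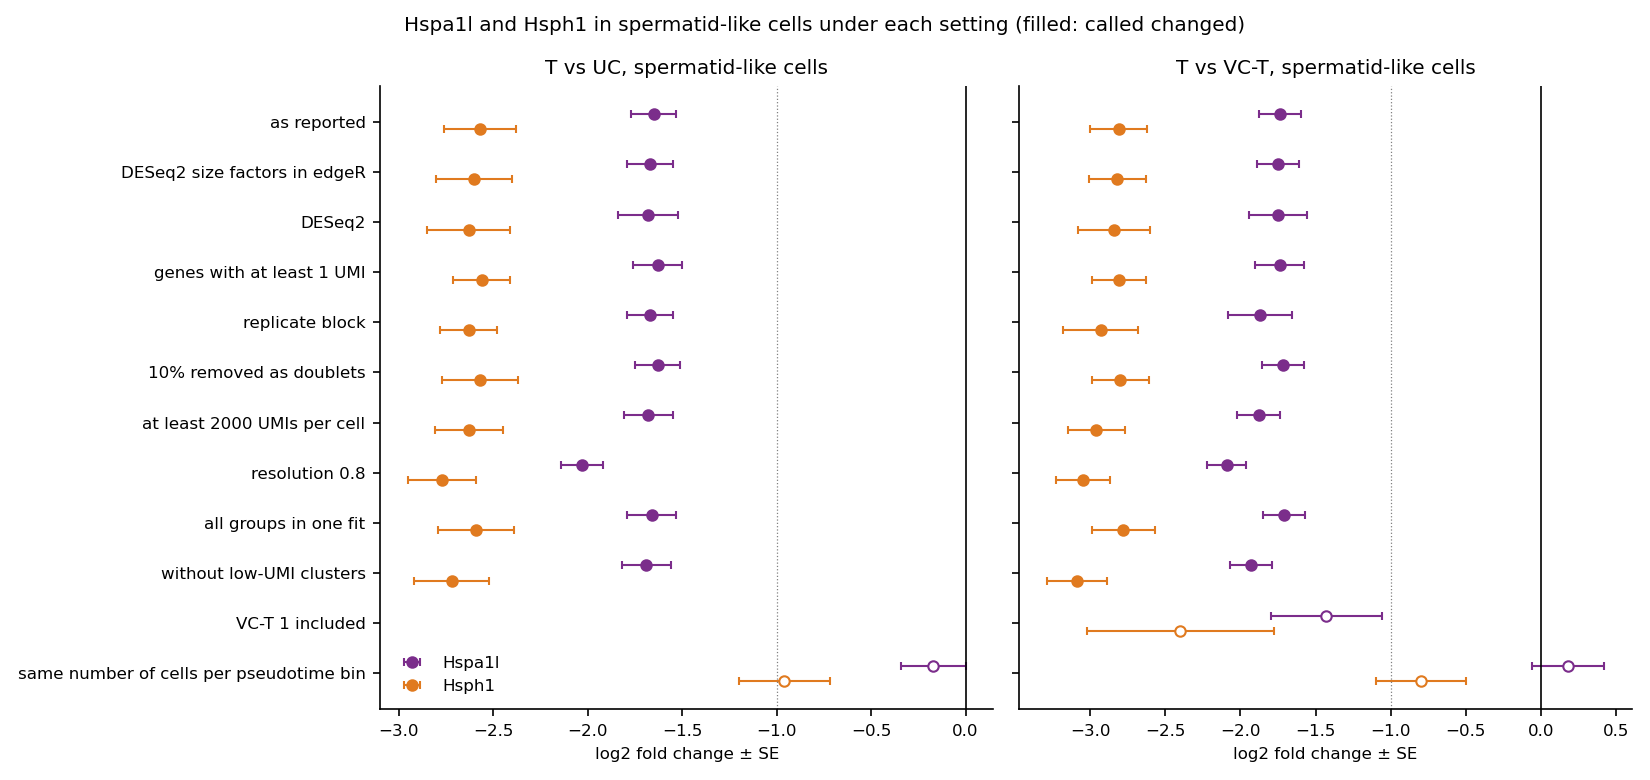
Log2 fold change ± SE of Hspa1l and Hsph1 in spermatid-like cells of T, against UC on the left and VC-T on the right, under each way of processing the data (rows), filled where called and open otherwise, with a dotted line at the fold threshold. Against UC, both are filled in every row but that of matched pseudotime, where they are at -0.17 and -0.96, and against VC-T they are also open with VC-T 1 included.

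After 6 wk of recovery, 0 of the 10 genes were called in any of 8 comparisons with UC or VC-R by edgeR, and DESeq2 also called 0. In spermatid-like cells Hsph1 stood at 49.0, 44.8 and 45.6 CPM in R, within the 44.5 to 63.5 CPM of UC and the 43.2 to 59.0 CPM of VC-R. Hspa1l stood at 72.0, 71.7 and 71.0 CPM, just above the 66.1 to 70.0 CPM of UC and the 58.0 to 68.3 CPM of VC-R, although its scaled log2 fold change was -0.15 ± 0.10 (95% interval -0.34 to 0.04). Late round spermatids were 9.53%, 10.4% and 6.43% of the R and 16.5%, 31.9% and 38.4% of the VC-R spermatid-like cells. These are shares of cells, not of UMIs. The R late round cells had medians of 10123.5, 8996 and 16352 UMIs, against 1499.5, 1717.5 and 2185 in all R spermatid-like cells. In VC-R these medians were 4584, 8696 and 4251 against 3185, 6831 and 3542.5 UMIs. The part of the make-up in the levels of Hsph1 and Hspa1l was not tested. In late round cells Hsph1 was at 93.0, 100 and 95.2 CPM and Hspa2 at 281, 278 and 256 CPM in R.

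Among R spermatid-like cells, 4 genes passed the adjusted p threshold against UC in edgeR without the fold: Hspa4l (-0.39), Hsph1 (-0.39), Hsp90aa1 (-0.36) and Hsp90ab1 (-0.25), beside 6.80% of 14850 genes called, 990 higher and 20 lower. Without the clusters of low-UMI cells, 156 genes were called in place of 1010. Against VC-R the only such gene was Hsp90aa1 (-0.45 ± 0.10, adjusted p = 0.0370), and 2.47% of 14999 genes were called, a number of 370 that became 0 without the low-UMI clusters, 1621 without VC-R 1, 140 without R 2 and 0 without VC-R 2, VC-R 3, R 1 or R 3.

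In R spermatozoa-like cells Hspa1l stood at 253, 257 and 243 CPM against 279, 268 and 289 CPM in UC (-0.21 ± 0.07, edgeR adjusted p = 0.0427) and 270, 258 and 291 CPM in VC-R, each R library below every UC and VC-R library. Hspa2 was at 0.32 ± 0.09 against UC (edgeR adjusted p = 0.0292). The shares called over all genes were 0.883% of 12340 against UC and 0% of 12266 against VC-R, where 1911 genes had an unadjusted p under 0.05 and DESeq2 called 0.

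In R spermatocyte-like cells no member differed by more than 0.34 in either direction, and 0% of 13434 genes (against UC) and 0% of 13556 genes (against VC-R) were called. There, 1031 and 435 genes had an unadjusted p under 0.05, and DESeq2 called 0 and 1. In spermatogonia-like cells 9 members were tested, and 0.406% of 6399 genes were called against UC and 0% of 6485 against VC-R, where 560 genes had an unadjusted p under 0.05 and DESeq2 called 12. The widest member difference was that of Hspa1l against VC-R, at 44.1, 36.1 and 48.0 CPM against 11.9, 17.1 and 8.83 CPM (1.57 ± 0.47, edgeR adjusted p = 0.295), with the spermatozoa markers in these cells at 1797 to 3077 CPM in R and 654 to 1656 CPM in VC-R. Hspa2 in these cells stood at 220, 211 and 176 CPM in R.

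**Figure D5:**
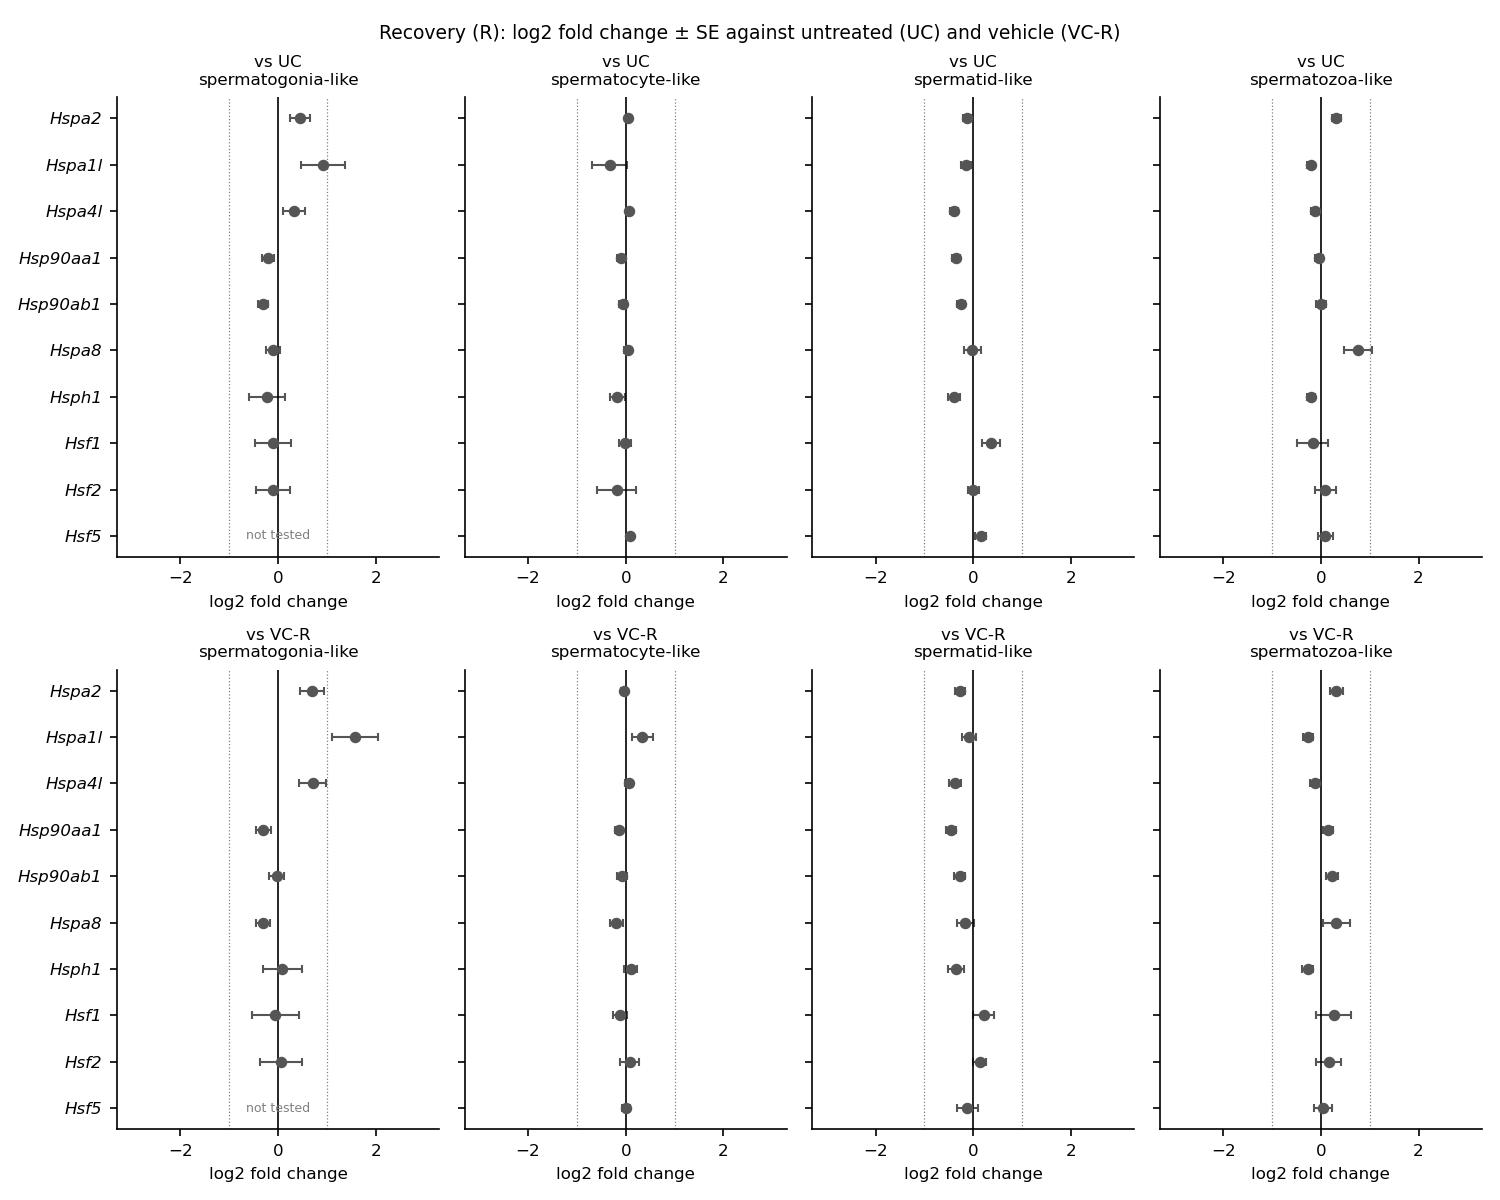
Log2 fold change of R against UC and against VC-R for each of the 10 genes in the 4 germ classes, with bars of ± SE and dotted lines at the fold threshold of 1 on either side. No gene is called, and the point furthest out is Hspa1l in spermatogonia-like cells against VC-R at 1.57.

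Around the 10 genes, a list of 84 further chaperones and co-chaperones was read in the same fits, all of them in the files. In spermatid-like cells of T against UC, 72 were tested, 2 were called higher and 3 lower, with a median of 0.25 beside 0.05 over all genes. The mitochondrial chaperonin Hspd1 (2.12 ± 0.22) and the HSP70 relative Hspa14 (1.16 ± 0.41) were higher. Both stood at low mean levels, Hspd1 at 16.7 CPM in T and 3.33 CPM in UC and Hspa14 at 2.46 and 0.952 CPM. The HSP40 co-chaperones Dnajb8 (-2.25 ± 0.13) and Dnajb7 (-1.78 ± 0.15) and the nucleotide exchange factor Bag1 (-1.21 ± 0.07) were lower. The smaller share of late round cells in T applies to these sums too, and its part in them was not tested. By family, 2 of 23 HSP40 genes, 1 of 21 co-chaperones, 1 of 11 chaperonins and 1 of 8 HSP70 or HSP110 genes were called, and 0 of 2 HSP90 genes, 0 of 6 small heat shock proteins and 0 of 1 further heat shock factor. Over the list this was 6.94%, below the 16.5% of all genes.

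In spermatogonia-like cells of T, 2 of 62 were lower (3.23%, beside 2.91% of all genes). These were Dnajb8 (-2.41 ± 0.40) and the sperm tail protein gene Odf1 (-1.75 ± 0.43), which is one of the spermatozoa markers. Dnajb8 stood at 18.3 CPM in T and 104 CPM in UC, beside 440 CPM in UC spermatid-like cells. The spermatozoa markers in spermatogonia-like cells were at 266 to 595 CPM in T and 1009 to 2258 CPM in UC. In spermatocyte-like cells 0 of 73 were called by edgeR. Within pachytene Dnajb8 (-2.49 ± 0.20) and Odf1 (-1.13 ± 0.21) were lower and Bag2 (1.05 ± 0.36) higher, 4.17% of the list beside 5.27% of all genes. Dnajb8 there stood at 7.82 CPM in T and 40.9 CPM in UC, and the spermatozoa markers at 120 to 207 and 496 to 580 CPM. The part of free RNA in the Dnajb8 differences outside spermatid-like cells, here and against VC-T, was not tested. Of 70 tested in early round spermatids, Hspd1 (1.70 ± 0.23) was higher and Dnajb8 (-1.01 ± 0.09) lower, 2.86% beside 3.09% of all genes. In late round spermatids 6 of 60 tested were called, or 10.0%, beside 15.7% of all genes. Stip1 (1.55 ± 0.38), Hsp90b1 (41.6 ± 15.1 CPM in T against 18.5 ± 0.268 CPM in UC, SD) and Dnaja2 (1.13 ± 0.21) were higher. Bag1 (-1.41 ± 0.11), Dnajc7 (62.5 ± 8.49 against 126 ± 9.72 CPM, SD) and Cdc37l1 (-1.14 ± 0.17) were lower. Dnajb7 was called in neither spermatid stage, and Dnajb8 and Hspd1 were not called in late round spermatids. The T libraries were split for Stip1, at 28.6 ± 28.8 CPM against 9.21 ± 1.63 CPM in UC (SD). T 3 held no Stip1 UMI there and lay below every UC library. Leptotene and zygotene cells of T, in which 33 of the list were tested, had lower Cct8 (-1.68), St13 (-1.60) and Hspa5 (-1.31), 9.09% beside 10.6% of all genes.

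Against VC-T, the list had 2 genes higher and 4 lower of 72 in spermatid-like cells, with Hspd1 (2.34 ± 0.25), its partner Hspe1 (1.15 ± 0.16), Dnajb8 (-2.30 ± 0.16), Dnajb7 (-1.93 ± 0.15), Bag1 (230 ± 6.40 CPM in T against 442 ± 76.6 CPM, SD) and Cdc37l1 (-1.02 ± 0.13), or 8.33% beside 19.0% of all genes. In spermatocyte-like cells Hspd1 (-2.14 ± 0.29) and Dnajb8 (-2.01 ± 0.32) were lower, 2 of 73 or 2.74%, beside 5.71%. In spermatogonia-like cells 4 of 64 were higher: Hsbp1l1 (1.81 ± 0.47), Dnajb2 (1.51 ± 0.29), Cct6b (1.32 ± 0.35) and Dnajb1 (1.26 ± 0.24). Dnajb8 (-1.84 ± 0.36) was lower, and the share called was 7.81% beside 6.51%. The interaction term called Hspd1 (3.31 ± 0.42) and Cdc37l1 (-1.09 ± 0.13) of 73, or 2.74% beside 2.13%.

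After recovery 1 gene of the list was called in each of 3 comparisons, and no gene in more than 1 of them. These were Hspa14 in spermatid-like cells against UC (1.06 ± 0.41) and Hspa12b in spermatid-like cells against VC-R (1.19 ± 0.29). The small heat shock protein Hspb1 was called in spermatozoa-like cells against UC (1.12 ± 0.32). All of them stood at low mean levels: Hspa14 at 2.17 against 0.952 CPM, Hspa12b at 6.36 against 2.38 CPM and Hspb1 at 3.38 against 1.45 CPM. A set of 16 genes that tissue dissociation induces, with Hspa1a, Hspa1b and Dnajb1 among them, was summed to show handling stress. It held 472 to 503 CPM in T spermatid-like cells, above the 366 to 410 CPM of every UC library. The T and UC sums were 433 to 458 and 425 to 447 CPM in spermatocyte-like and 211 to 268 and 164 to 216 CPM in spermatogonia-like cells. They were 3280 to 4021 and 647 to 2403 CPM in Leydig-like and 1072 to 1451 and 670 to 1486 CPM in Sertoli-like cells. The part of handling in the members' differences was not tested. In T against UC 0 of the 4 genes tested were called in spermatid-like or spermatocyte-like cells, and the rest of the set had too few counts to be tested. Elsewhere Dnajb1 was called in spermatogonia-like cells against VC-T (the 1 gene of the set tested there), Junb in R spermatid-like cells against UC (of 7) and Hspb1 in R spermatozoa-like cells against UC (of 6), so Dnajb1 and Hspb1, named above, belong to this set too. Brdt itself was not called in any comparison, and was at 0.19 ± 0.08 in T spermatid-like cells against UC (edgeR adjusted p = 0.0714). In T spermatogonia-like cells it was at 0.98 ± 0.27 against VC-T (edgeR adjusted p = 0.0384), past the p threshold but not the fold threshold. Against UC it was there at 0.70 ± 0.28 (edgeR adjusted p = 0.207).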

How the data were processed

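Single-cell suspensions of testis from 15 mice were measured by droplet RNA sequencing. The deposited counts are unnormalized UMIs of each gene in each cell, made by the authors with Cell Ranger 3.0.0 per their methods on build mm10. The file headers name a later Cell Ranger, and whether intron reads were counted is not given in the sources used here. The authors' correction for free RNA and their doublet calls are not part of these counts. No batch is given, since the libraries were processed together.

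Cells with at least 500 genes, 1000 UMIs and at most 30% mitochondrial UMIs were kept, and 5.4% of each library with the highest simulated-doublet scores was removed, which left 2430 to 12743 cells per library at a median of 2454 to 4213 UMIs. Cells were clustered in scanpy 1.11.5 on 2000 variable genes without the 10 members (30 components, 20 neighbours, Leiden resolution 1.2), and 32 clusters were named from fixed markers, at least 3 of them detected in 10% of the cells, or left unnamed. UMIs were summed per library and class, with at least 10 cells, and fitted over all genes in edgeR 4.0.16 (quasi-likelihood test, TMM scaling, Benjamini-Hochberg adjustment), with DESeq2 1.42.0 as an alternative. The fits were checked on simulated counts. The rule for named genes took all 10 members, and of the further chaperones up to 5 per direction and comparison among those called. The members and gene lists were chosen with earlier results of these data known. Intervals and limits cover counting error or the spread between mice only.

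Same-numbered T and UC libraries share replicate numbers in the labels. Their deviations from the group means correlated at 0.661, 0.404 and 0.113 in spermatocyte-like cells, so the replicate block is given there beside the result, although the labels do not say what a number shares.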

Additional observations from a re-analysis of the deposited data

Results flagged for a closer look

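The T against UC difference of 2 members differed between spermatid-like and spermatocyte-like cells by the interaction term. For Hsph1 the difference was lower by 2.34 ± 0.29 on the log2 scale in spermatid-like cells (log2 value -2.34, edgeR adjusted p = 0.0200), and the call was lost when UC 2, UC 3, T 1, T 2 or T 3 was left out. For Hspa4l it was -0.63 ± 0.10 (edgeR adjusted p = 0.0296), with -0.01 ± 0.06 in spermatocyte-like and -0.41 ± 0.07 in spermatid-like cells, short of the fold threshold. Late round spermatids made up 25.8% to 38.8% of the UC and 2.66% to 6.91% of the T spermatid-like cells, and the part of this in the differences was not tested. Groups of 3 libraries were too small for a check of single outlying values.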

How the results depend on the processing

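Of the values of single members under the alternatives, 2731 kept their direction and side of the threshold, 31 were no longer past it, 16 were newly past it and 1 reversed: Hspa1l in spermatid-like cells of T against VC-T, at 0.18 with the same number of cells per pseudotime bin. That setting left 0 members called in spermatid-like cells in both T comparisons, 0 and 1 in spermatogonia-like cells against UC and VC-T, and 2 in spermatocyte-like cells against UC (Hspa1l and Hsf2). With VC-T 1 included, 0 members were called in each of the 3 classes. In spermatogonia-like cells against UC, a minimum of 1 UMI per gene and one of 2000 UMIs per cell each gave 2 members called (Hsf5 added), and removing 10% of cells as doublets gave 0, while DESeq2 gave 1 against VC-T in place of 2. In leptotene and zygotene cells these were 4 with a minimum of 1 UMI, 0 with more doublets removed and 3 with all groups in 1 fit, which in late round spermatids gave 2.

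Leaving out 1 library moved the members called to between 0 and 1 in spermatogonia-like cells of T against UC and of R against VC-R (Hspa4l at 1.09 without VC-R 1), in spermatocyte-like cells of T against UC and VC-T (lost without VC-T 2) and in the interaction term, to between 1 and 2 in spermatogonia-like cells of T against VC-T and in pachytene, to between 0 and 4 in leptotene and zygotene and to between 1 and 3 in late round cells. Where VC-T 2 or VC-T 3 is left out, the remaining vehicle library is assumed to vary like the other group. With the replicate block, 1 member was called in spermatogonia-like, 1 in spermatocyte-like and 2 in spermatid-like cells of T against UC, and the block changed no member's call elsewhere. Outside T against UC spermatocyte-like cells the same-numbered libraries shared only a number, with correlations of their deviations from -0.497 to 0.194. The cause of these changes was not tested.

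TMM-scaled levels at the stages with the highest CPM were 1112 for Hspa2, 906 for Hspa1l, 2561 for Hspa4l, 4212 for Hsp90aa1, 1330 for Hsp90ab1, 395 for Hspa8, 164 for Hsph1, 19.2 for Hsf1 and 189 for Hsf5, and Hsph1 was then highest in spermatozoa-like cells.

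Counts over all genes moved by more than 1.5 times in several fits. For spermatocyte-like cells of T against UC the 104 genes became 450 with the replicate block, 496 in DESeq2, 337 with a minimum of 1 UMI, 610 at resolution 0.8, 719 with all groups in 1 fit, 364 at matched pseudotime, 639 without the cluster of no stage and 1 to 462 without 1 library (462 without UC 1). The 321 of the interaction term became 490 in DESeq2, 2401 at resolution 0.8, 2088 without the cluster of no stage and 0 to 1355 without 1 library. At matched pseudotime, spermatid-like cells gave 223 in place of 2177 against UC and 50 in place of 2770 against VC-T, and spermatogonia-like cells 8 in place of 212 and 37 in place of 612. With VC-T 1 included, 0, 30 and 0 genes were called in spermatogonia-like, spermatocyte-like and spermatid-like cells. In R spermatid-like cells the 1010 against UC became 568 with at least 2000 UMIs per cell and 156 without the clusters of low-UMI cells, and the 370 against VC-R became 0 in both, 771 with a minimum of 1 UMI, 180 with the block, 1012 at matched pseudotime and 0 to 1621 without 1 library. Leaving out clusters was chosen after seeing the data. In the late round and the leptotene and zygotene comparisons, T libraries gave as few as 23 and 10 cells.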
